A study of Rattus norvegicus with 6 samples.

Results

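Fatty acid oxidation genes and targets of the peroxisome proliferator-activated receptors (PPARs) were examined in astrocytes grown from rat spinal cord. The set was a list of 34 genes chosen by function: 4 receptors, 7 genes of fatty acid uptake, binding and activation, 3 of the carnitine shuttle, 11 of mitochondrial oxidation, 4 of peroxisomes and 5 further PPAR targets. Of these, 33 had a probe set of their own on the array, among 14217 genes with a symbol, and 27 were bright enough to test, among 10473 genes. Each gene was read through the probe set with the highest mean log2 signal over the arrays. Acaa1a, the peroxisomal thiolase, is not described because the only probe set that names it also names Acaa1b.

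RNA came from confluent monolayers kept in supplemented L15 medium and was hybridised to 6 Affymetrix rat genome arrays, 3 in each group. NonTG cultures carried no transgene. SOD1-G93A cultures, labelled hSOD1G93A, came from rats transgenic for human superoxide dismutase 1 with the G93A mutation of familial amyotrophic lateral sclerosis. The titles give the arrays of each group the letters A, B and C. The sources used here give neither the age of the animals nor the promoter of the transgene. Nor do they say that arrays of 1 group stem from different animals or dishes, so a p-value here reflects the spread between these arrays alone, and that spread may be technical.

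Fatty acids enter cells with the help of transporters and binding proteins, are coupled to coenzyme A by acyl-CoA synthetases and pass into mitochondria as carnitine esters. A cycle of dehydrogenase, hydratase, hydroxyacyl dehydrogenase and thiolase steps then shortens them, while peroxisomes take on very long and branched chains. The PPARs are nuclear receptors that bind fatty acids and, paired with a retinoid X receptor, raise the transcription of many genes of this route. In the brain, astrocytes are known as the main cells that oxidise fatty acids.

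PPARs bind DNA at direct repeats of the letters AGGTCA with 1 base between the copies, so these letters were searched in the promoters of the genes. RefSeq promoter windows of the rat build GRCr8, which run from just before to just after the start of a gene, were found for 26 of the 34 genes. AGGTCA or its reverse complement TGACCT was present in 4 of the 28 windows of these genes (14.3%), beside 16.2% of all 33469 windows of the same length. Counted by gene, it was in 4 of the 26 genes (15.4%), beside 16.9% of all 27457 genes with a window. The direct repeat AGGTCANAGGTCA, where N is any base, was searched on both strands with no mismatch; each copy of it also counts as AGGTCA. It was in 0 of the 28 windows and in 18 of all windows (0.0538%). Repeats with a mismatch, and sequence outside these short windows, were not searched, so this does not show that the genes lack a PPAR element. The 6 matches to AGGTCA or TGACCT, a single copy of the repeated letters, are printed because they are the only exact ones in these windows. Each runs 5′ to 3′ on the strand of its gene with the match in capitals.
Ucp3, chr1:164227738-164227777 (+): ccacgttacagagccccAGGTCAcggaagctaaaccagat
Ucp3, chr1:164227843-164227882 (+): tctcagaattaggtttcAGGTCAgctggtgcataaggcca
Hadhb, chr6:31907451-31907475 (-): gtttatcagtctggactTGACCTtc
Eci1, chr10:13961139-13961178 (+): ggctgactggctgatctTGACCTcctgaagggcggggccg
Acadvl, chr10:55236852-55236891 (-): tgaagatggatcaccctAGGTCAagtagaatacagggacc
Acadvl, chr10:55236700-55236739 (-): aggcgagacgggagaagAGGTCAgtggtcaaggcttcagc
A match of these letters is a description of the window and not a binding site. Ucp3 was dim in these cultures, and its signals are given with the other PPAR targets. Hadhb, Eci1 and Acadvl encode enzymes of mitochondrial oxidation and are described with that group.

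Values are the MAS5 signals of the authors, a linear intensity per probe set. Signals of different probe sets do not rank the amounts of different RNAs, so each gene is compared only with itself. Sums of marker signals weigh the brightest probe sets most, and each sum is compared only between arrays. A probe set was called dim, and not tested, when its mean log2 signal lay at or below the 40th percentile, which is a signal of 66.7. Differences are given as log2 of SOD1-G93A over NonTG, each with its standard error (SE) from limma, and n = 3 arrays per group throughout. This SE is moderated: limma draws the spread of each probe set towards that of probe sets with similar signal. In bulk RNA, fewer cells of a type and less RNA per cell cannot be told apart.

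No gene of the set passed the adjusted threshold of 0.05 for a difference between SOD1-G93A and NonTG cultures. Of the 27 tested, 18 were higher and 9 were lower in SOD1-G93A, with a median difference of 0.032. All 27 had a limma adjusted p of 0.9997, and none had an unadjusted p below 0.05. Among all 18625 probe sets tested, 0 passed the adjusted threshold of 0.05 (0%), 474 had an unadjusted p below 0.05, 52.0% were higher and the median difference was 0.0070. With the letter as a replicate block the adjusted threshold was again passed by 0 probe sets, and 1090 had an unadjusted p below 0.05. In 3 of the 27 genes (11.1%) the SOD1-G93A arrays lay wholly above the NonTG arrays, Acsl3, Cpt1a and Etfdh, and in 0 they lay wholly below. Over all probe sets tested, 4.00% lay wholly above and 3.51% wholly below. With 3 arrays on each side, the smallest exact permutation p is 0.1.

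**Figure D1:**
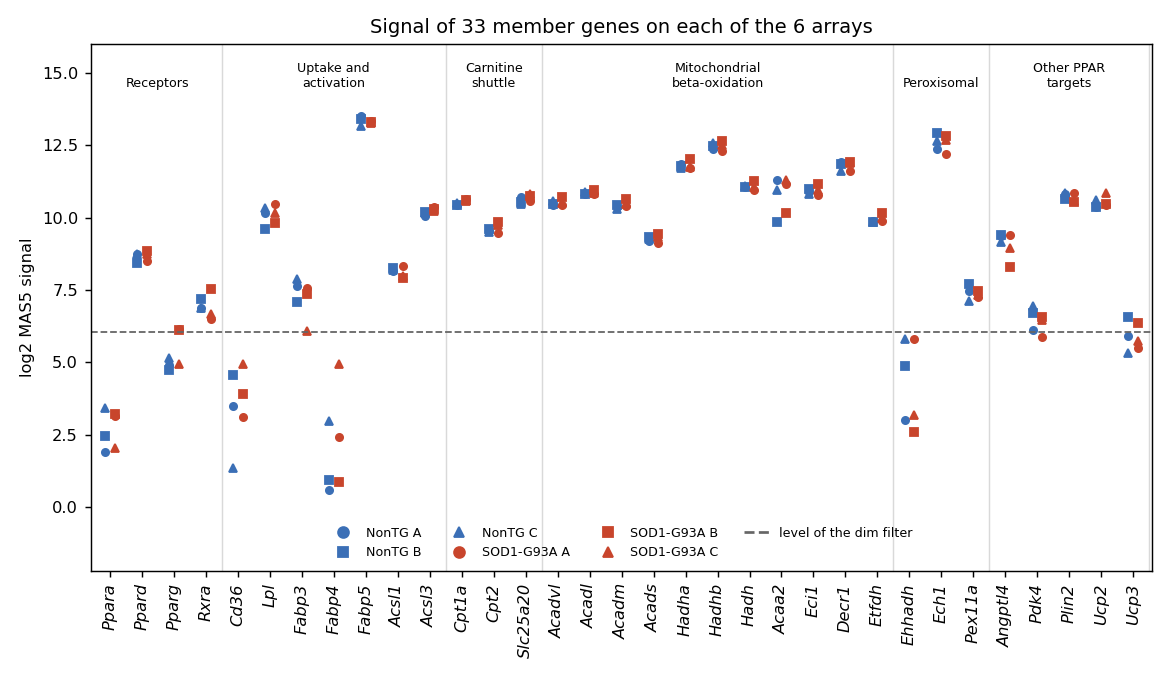
Log2 signal (vertical axis) of the 33 measured genes on each of the 6 arrays, with the dim level of 66.7 as a dashed line. NonTG and SOD1-G93A points of a gene mostly overlap, and 6 genes have a mean log2 signal below the line.

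The culture check came first. All 8 astrocyte markers were bright enough to test, and their summed signal was 92485.5 to 104271.1 on NonTG arrays and 87130.7 to 103574.6 on SOD1-G93A arrays. Of the 8, 5 were higher in SOD1-G93A, with a median difference of 0.074. Slc1a2 was higher without overlap between groups (0.47, SE 0.23), and the limma adjusted p of all 8 was 0.9997. Microglial markers were mostly dim: 2 of 8 were tested, with sums of 308.4 to 504.6 on NonTG and 320.8 to 527.4 on SOD1-G93A arrays. Laptm5 was above the dim level on 6 arrays, Lyz2 on 4, Aif1 and Csf1r on 2 each and Cx3cr1 on 1. Itgam, Cd68 and Ptprc were above it on 0 arrays. Adipocyte markers, of interest because several PPAR targets are abundant in fat, were all on 0 arrays above the dim level, with 0 of 5 tested, and none of the 5 muscle markers was tested either. All 7 fibroblast markers, all 8 pericyte and smooth muscle markers, 5 of 6 neuronal and 2 of 6 measured endothelial markers were tested. Of the 8 pericyte and smooth muscle markers 0 were higher in SOD1-G93A, with a median difference of -0.22. Lmod1 differed by -0.58 (SE 0.21, limma unadjusted p = 0.020), and the limma adjusted p of all 8 was 0.9997. Of the oligodendrocyte lineage, 6 of 9 measured markers were tested and 5 were higher in SOD1-G93A, with a median difference of 0.44; Mag (0.63, SE 0.27) and Ugt8 (0.72, SE 0.27) did not overlap between groups, and the limma adjusted p of all 6 was 0.9997. The rat probe set of Sod1 read 8982, 8855 and 9430 in NonTG A, B and C and 9781, 10860 and 10510 in SOD1-G93A A, B and C. Its groups did not overlap and the difference was 0.19 (SE 0.069, limma adjusted p = 0.9997); it targets the rat transcript and is no direct check of the human transgene.

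Of the 4 receptors, 2 were bright enough to test. Ppard, the receptor found in most tissues, read 429.9, 346.9 and 432 in NonTG A, B and C and 361, 465 and 427 in SOD1-G93A A, B and C. These ranges overlap, and the difference was 0.051 (SE 0.15, limma adjusted p = 0.9997, 95% interval -0.29 to 0.39). Rxra, the retinoid X receptor that pairs with the PPARs, read 117, 146 and 117 in NonTG and 89.7, 187 and 103 in SOD1-G93A. Both of its extremes were SOD1-G93A arrays, the lowest in A and the highest in B, and the difference was -0.072 (SE 0.30, limma adjusted p = 0.9997).

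Ppara, which drives oxidation genes in liver, and Pparg, the receptor of fat cells, were dim. Ppara read 3.70, 5.46 and 10.7 in NonTG and 8.85, 9.29 and 4.15 in SOD1-G93A, far below the dim level on all 6 arrays. Pparg read 29.6, 26.3 and 35.1 in NonTG and 70.3, 69.6 and 30.9 in SOD1-G93A. It passed the dim level on 2 arrays, SOD1-G93A A and B, while the third SOD1-G93A array lay within the NonTG range.

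Of the 5 tested genes of uptake, binding and activation, 2 were higher and the median difference was -0.059. Acsl3, an acyl-CoA synthetase found on lipid droplets and the endoplasmic reticulum, read 1070.4, 1157 and 1139 in NonTG A, B and C and 1325, 1245 and 1209 in SOD1-G93A A, B and C. Every SOD1-G93A array lay above every NonTG array, and SOD1-G93A was 1.12-fold higher, a difference of 0.17 (SE 0.090, limma adjusted p = 0.9997). Its 95% interval of -0.037 to 0.37 includes 0. Acsl1, another synthetase and a known PPAR target, had a difference of -0.13 (SE 0.16), and its second tested probe set gave -0.22 (SE 0.23).

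Fabp3, a binding protein best known from heart muscle, had the largest difference among the 27 genes, -0.52 (SE 0.38, limma adjusted p = 0.9997). Its signals were 197, 136 and 235 in NonTG and 189, 164 and 68.1 in SOD1-G93A. SOD1-G93A C was lower than the other 5 arrays, and SOD1-G93A A and B lay within the NonTG range. Within letter C the difference was -1.78, and without SOD1-G93A C it was -0.063.

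Lpl, the lipase that frees fatty acids from lipoproteins, read 1151, 778 and 1277 in NonTG and 1434, 908 and 1156 in SOD1-G93A. Letter B was lowest in both groups, and the group difference was 0.13 (SE 0.21, limma adjusted p = 0.9997). Fabp5, a binding protein of brain and skin, was bright on all arrays and differed by -0.059 (SE 0.089). Cd36, a fatty acid transporter of fat, muscle and macrophages, and Fabp4, the binding protein of fat cells, were dim. Cd36 lay between 2.53 and 30.7 and Fabp4 between 1.501 and 30.5 over the 6 arrays.

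The carnitine shuttle and mitochondrial enzymes, apart from Acaa2, varied little between arrays. All 14 had a difference above 0, with a median of 0.065, but none passed the test. For the 13 other than Acaa2 the highest array was 1.10 to 1.32 times the lowest, and the differences ran from 0.0067 to 0.16 with SE of 0.082 to 0.12. Their 95% intervals lay within 1.18-fold lower and 1.34-fold higher, so larger changes than these were outside the intervals of every one of the 13 genes.

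Cpt1a, which makes the carnitine esters at the outer membrane and controls the rate of entry, read 1386, 1396 and 1460 in NonTG A, B and C and 1614, 1561 and 1525 in SOD1-G93A A, B and C. The groups did not overlap, and SOD1-G93A was 1.11-fold higher, a difference of 0.15 (SE 0.082, limma adjusted p = 0.9997). A second probe set of Cpt1a read 1111, 978 and 1099.9 in NonTG and 1129, 1044 and 1115 in SOD1-G93A. The groups overlapped there, with a difference of 0.046 (SE 0.097).

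Slc25a20, the carrier that exchanges carnitine esters across the inner membrane, read 1681, 1493 and 1433 in NonTG and 1521, 1712 and 1809 in SOD1-G93A. SOD1-G93A B and C were its highest arrays, while SOD1-G93A A lay among the NonTG values, and the difference was 0.13 (SE 0.10, limma adjusted p = 0.9997). Cpt2, which returns the acyl group to coenzyme A inside the mitochondrion, read 746, 778 and 728 in NonTG and 708, 932 and 866 in SOD1-G93A. Here too SOD1-G93A B and C were the highest arrays, SOD1-G93A A was the lowest of all, and the difference was 0.15 (SE 0.12, limma adjusted p = 0.9997).

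Acadm, the medium-chain acyl-CoA dehydrogenase, read 1318, 1396 and 1251 in NonTG and 1340.0, 1607 and 1414 in SOD1-G93A. The groups overlapped because SOD1-G93A A fell below NonTG B, and the difference was 0.13 (SE 0.10, limma adjusted p = 0.9997). The dehydrogenases of other chain lengths differed less: Acadvl, for very long chains, by 0.056 (SE 0.10), Acadl, for long chains, by 0.031 (SE 0.082), and Acads, for short chains, by 0.037 (SE 0.12). Etfdh, the flavoprotein dehydrogenase that passes their electrons to ubiquinone, read 938, 922 and 914 in NonTG and 949, 1137 and 1019 in SOD1-G93A. Its groups did not overlap, though NonTG A and SOD1-G93A A were nearly equal, and the difference was 0.16 (SE 0.10, limma adjusted p = 0.9997).

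Hadha and Hadhb encode the subunits of the trifunctional protein, which carries out the last steps of the cycle on long chains. Hadhb had the smallest difference of the set, 0.0067 (SE 0.096), and Hadha differed by 0.032 (SE 0.096). Hadhb read 5345, 5686 and 6133 in NonTG and 5082, 6350 and 5857 in SOD1-G93A. Hadh, the hydroxyacyl dehydrogenase for shorter chains, differed by 0.028 (SE 0.093). Eci1 and Decr1, which handle double bonds of unsaturated fatty acids, differed by 0.074 (SE 0.11) and 0.017 (SE 0.11).

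The direction shared by the 14 shuttle and mitochondrial genes depended more on SOD1-G93A B than on any other array. SOD1-G93A B was the highest of the 6 arrays for 11 of the 14 (78.6%), a count made after the values were seen, and for 22.4% of all probe sets tested. For these 11 genes, leaving that array out lowers the difference by construction. SOD1-G93A A was the lowest for 7 of the 14 (50%), beside 16.5% of all probe sets. The median of the 14 genes, each relative to its own mean, was -0.056, -0.026 and -0.051 on NonTG A, B and C and -0.096, 0.16 and 0.034 on SOD1-G93A A, B and C. The SOD1-G93A arrays thus held both the lowest and the highest value. Without SOD1-G93A B, 6 of the 14 were higher and their median difference was -0.015, and of all 27 tested genes 9 were higher, with a median of -0.033. The difference was then 0.062 for Cpt2, 0.060 for Acadm and 0.088 for Etfdh, and that of Slc25a20 was 0.074 without SOD1-G93A C. Leaving out any array other than SOD1-G93A B left 11 to 14 of the 14 higher. The summed pericyte and smooth muscle markers were 27395.6, 23780.5 and 29648.2 in NonTG A, B and C and 29356.8, 17666.7 and 25220.6 in SOD1-G93A A, B and C, lowest on SOD1-G93A B. The fibroblast sum was 60274.8 to 61241.3 on NonTG arrays and 61951.9, 44949.3 and 56047 on SOD1-G93A A, B and C, again lowest on B. The collagens and Postn make up most of that sum. The 3 dimmer fibroblast markers, Dcn, Lum and Aldh1a2, were higher in SOD1-G93A than in NonTG. Dcn read 59.1 to 92.3 on NonTG arrays and 667, 283 and 349 on SOD1-G93A A, B and C. Aldh1a2 read 152 to 282 and 559, 474 and 435. Lum read 114 to 1118 and 1347, 433 and 513, with overlap and a difference of 1.08 (SE 0.73). Among the SOD1-G93A arrays, Dcn and Lum were lowest on B and Aldh1a2 on C. The oligodendrocyte lineage sum, like the median of the 14 genes, was highest on SOD1-G93A B. It was 5582.9, 5866.7 and 5237.3 in NonTG A, B and C and 6115.5, 7683.7 and 5747.4 in SOD1-G93A A, B and C. On SOD1-G93A A that median was lowest, while the sum lay above all NonTG arrays. Mbp read 2862.5 on SOD1-G93A B and 592 to 2145 on the other arrays, while Cnp read 1930.5 there, below all NonTG arrays. The astrocyte sum was 92485.5, 104271.1 and 93410.6 in NonTG A, B and C and 87130.7, 103574.6 and 99596.6 in SOD1-G93A A, B and C. It was lowest on SOD1-G93A A, as was the median of the 14 genes, but highest on NonTG B. The part of all these markers in the pattern of the 14 genes was not tested.

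**Figure D2:**
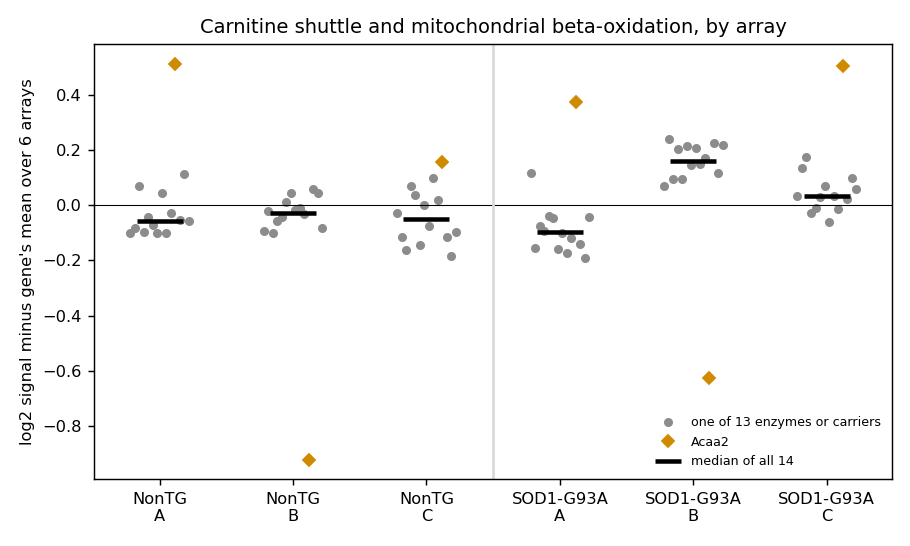
Log2 signal minus the gene's own mean over the 6 arrays (vertical axis) for the 14 carnitine shuttle and mitochondrial genes on each array. Points are genes, diamonds are Acaa2 and bars are medians: SOD1-G93A B has the highest median, 0.16, and SOD1-G93A A the lowest, -0.096.

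Acaa2, the thiolase of mitochondrial oxidation, stood apart from its neighbours in the cycle because it varied with the letter. It read 2514, 929 and 1964 in NonTG A, B and C and 2286, 1140.4 and 2497 in SOD1-G93A A, B and C. Both B arrays were low and their values lay below all 4 others. The mean of the A arrays was 2.33 times that of the B arrays and the mean of the C arrays 2.15 times. A moderated F-test of the letters in limma, with the group as a covariate, gave an adjusted p of 0.0041. The group difference was 0.17 (SE 0.38, adjusted p = 0.9997). A second probe set of Acaa2 was dim and was not tested.

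The letter test called 195 of 18625 probe sets (1.05%), and 2 of the 27 genes (7.41%), Acaa2 and Ech1. At an unadjusted p below 0.05 it held 4 of the 27 genes (14.8%), with Lpl and Ucp2 as the others, beside 15.6% of all probe sets, a share close to that of the set. Without the intensity trend in the variance model the letter test called 0 probe sets, and Acaa2 and Ech1 had adjusted p-values of 0.34 and 0.35. Both were called each time 1 array was left out. What the letters stand for is not given in the sources used here, and the pericyte and smooth muscle sum was the lowest of its group on the B array in both groups. Its part in the letter differences was not tested.

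**Figure D3:**
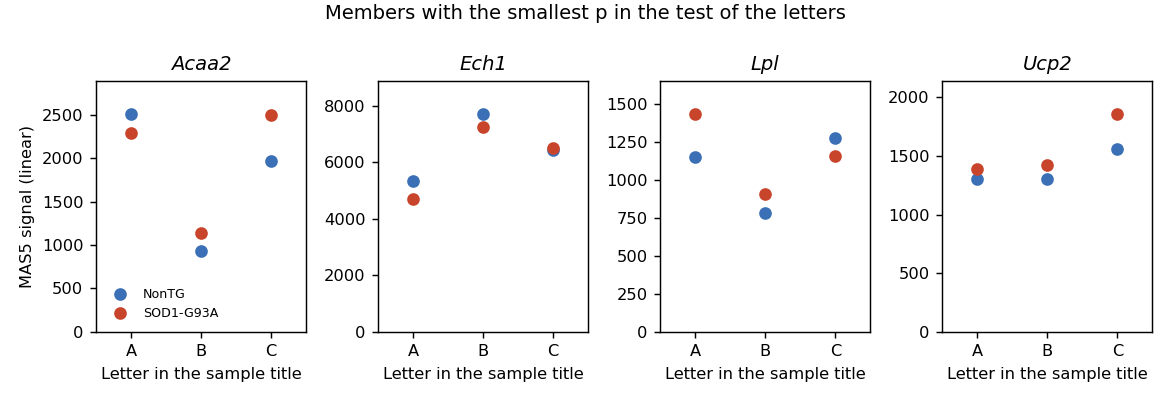
Signal (vertical axis) of Acaa2, Ech1, Lpl and Ucp2 on arrays A, B and C of each group, as points. Acaa2 is low on both B arrays (929 and 1140.4), Ech1 is low on both A arrays, Lpl is low on both B arrays and Ucp2 is high on both C arrays.

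Ech1, an isomerase of unsaturated acyl chains found in peroxisomes and mitochondria, was the other gene called for the letters. It read 5331, 7727 and 6449 in NonTG and 4700, 7252 and 6519 in SOD1-G93A. Letters fell in the same order in both groups, A lowest and B highest, with B 1.496 times A and C 1.30 times A (letter test adjusted p = 0.021, limma F-test). The group difference was -0.086 (SE 0.17, adjusted p = 0.9997). Lpl had a letter adjusted p of 0.091, with A 1.53 times B and C 1.44 times B.

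Among the other peroxisomal genes, Pex11a, which helps peroxisomes divide and is a PPAR target in liver, differed by -0.083 (SE 0.21). Ehhadh, the bifunctional enzyme of peroxisomal oxidation and a strong PPAR target in liver, was dim. It read 7.95, 29.3 and 55.9 in NonTG and 56.0, 5.95 and 8.97 in SOD1-G93A, with no order by group.

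Of the 4 tested PPAR targets outside oxidation, 3 were lower and 1 was higher, with a median difference of -0.21. Angptl4, a secreted inhibitor of lipoprotein lipase, read 665, 674 and 572 in NonTG A, B and C and 670.0, 311 and 493 in SOD1-G93A A, B and C. SOD1-G93A B was its lowest array, while SOD1-G93A A lay within the NonTG range. The difference was -0.44 (SE 0.24, limma adjusted p = 0.9997, 95% interval -0.98 to 0.10), made up of 0.012 within A, -1.12 within B and -0.22 within C. With the letter as a replicate block its unadjusted p was 0.047 and its adjusted p 0.83. Among the probe sets that stand for the 27 genes no other had an unadjusted p below 0.05 there, but the second probe set of Plin2 did (0.042, adjusted p 0.83). Over all 18625 probe sets tested, 1090 had an unadjusted p below 0.05 in that fit. Without SOD1-G93A B the difference of Angptl4 was -0.14. SOD1-G93A B, where Angptl4 was lowest, was also the array with the lowest fibroblast and pericyte sums and the highest oligodendrocyte lineage sum. Dcn and Aldh1a2 were above all NonTG arrays there, and Lum lay within the NonTG range. The part of these markers was not tested.

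Ucp2, an uncoupling protein of the inner mitochondrial membrane, was the target that was higher. It read 1304, 1307 and 1563 in NonTG and 1389.8, 1425 and 1861 in SOD1-G93A, higher in SOD1-G93A within every letter and highest on C in both groups. The group difference was 0.16 (SE 0.13, limma adjusted p = 0.9997) and the letter adjusted p was 0.19. Without SOD1-G93A C the group difference was 0.022. Plin2, the coat protein of lipid droplets, differed by -0.12 (SE 0.11), and its second probe set by -0.25 (SE 0.18). Pdk4, a kinase that turns pyruvate dehydrogenase off when fat is burned, passed the dim level on 5 arrays. Its probe sets disagreed in sign, -0.29 (SE 0.32) and 0.38 (SE 0.36), so no direction is given for it. Ucp3, the uncoupling protein of muscle, whose promoter window held 2 of the printed matches, was dim and lay between 39.6 and 95.1.

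**Figure D4:**
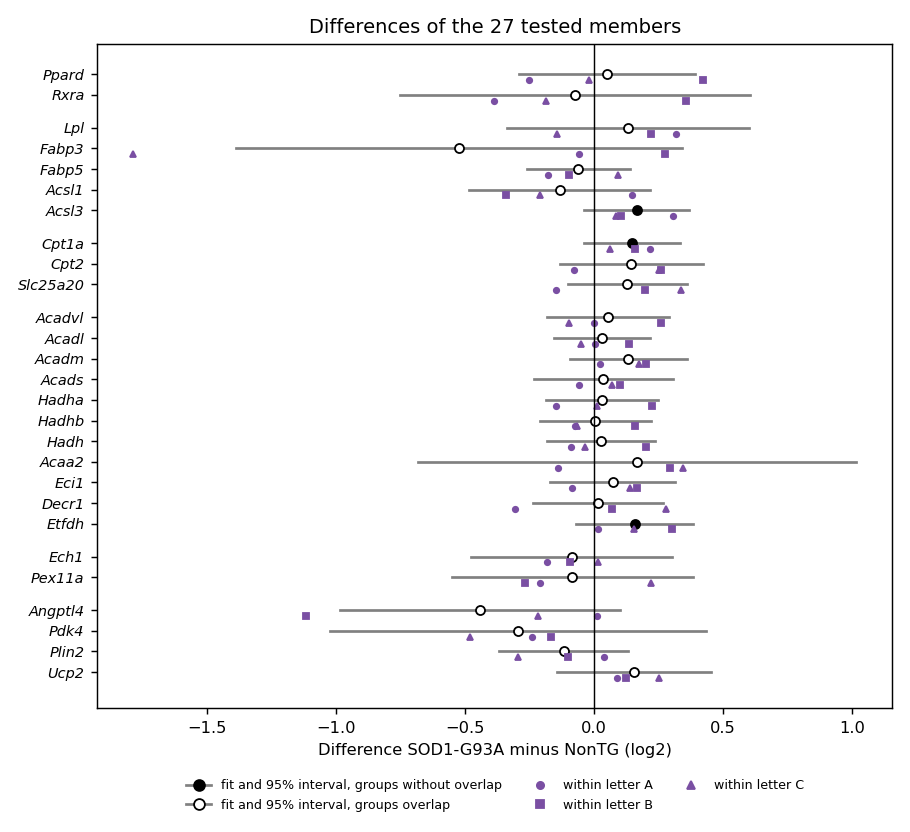
Difference SOD1-G93A minus NonTG (log2, horizontal axis) for the 27 tested genes, with bars for the 95% confidence interval from limma; filled points are genes whose groups do not overlap and purple marks are the differences within letters A, B and C. Every interval includes 0, and Fabp3 and Angptl4 lie lowest, each with 1 letter far below the others.

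A wider list held 111 genes of the same pathways that are not in the set. Of these 85 were tested, 55 were higher and 30 were lower, with a median difference of 0.047, and 0 passed the adjusted threshold (0% of all probe sets did). In 4 (4.71%) the SOD1-G93A arrays lay wholly above NonTG and in 2 wholly below, beside 4.00% and 3.51% of all probe sets. The 4 were Pnpla2, Abcd2, Fads2 and Lpin1 and the 2 were Bdh1 and Rxrb; Abcd2, Fads2 and Lpin1 are named for this overlap alone, after their values were seen. By function, 6 of 8 further uptake and activation genes were higher, 6 of 9 carnitine and malonyl-CoA genes, 9 of 15 other mitochondrial acyl-CoA enzymes and 11 of 18 peroxisomal genes. Ketone body enzymes had 1 of 3 higher, PPAR partners and coregulators 8 of 13, and genes of lipid droplets and lipolysis with further PPAR targets 14 of 19. For the letters, 0 of the 85 were called and 15 had an unadjusted p below 0.05 (17.6%).

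Bdh1, which interconverts the ketone bodies, was the only one of the 85 with an unadjusted p below 0.05. Among all 18625 probe sets tested, 474 had one. Bdh1 read 721, 755 and 643 in NonTG and 620.1, 549 and 551 in SOD1-G93A, with no overlap. The difference was -0.30 (SE 0.11, limma unadjusted p = 0.028, adjusted p = 0.9997). As the mean over its 2 probe sets it was -0.13 (SE 0.13). Pnpla2, the lipase that opens triglyceride in lipid droplets, read 474, 532 and 525 in NonTG and 632, 550.1 and 669.9 in SOD1-G93A. Here all SOD1-G93A arrays were higher, by 0.27 (SE 0.12, limma adjusted p = 0.9997). Rxrb, another retinoid X receptor, read 213, 192 and 212 in NonTG and 168, 149.9 and 179 in SOD1-G93A, lower without overlap by a difference of -0.31 (SE 0.17, limma adjusted p = 0.9997).

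Slc27a1, a fatty acid transporter, had a difference of 0.33 (SE 0.17) and was highest on SOD1-G93A B, at 1880.3. Plin3, another lipid droplet coat protein, had a difference of -0.33 (SE 0.17) and was lowest on the same array, at 762. Without SOD1-G93A B these differences were 0.18 and -0.15. Scd, which makes monounsaturated fatty acids, differed by 0.19 (SE 0.11), and Ncoa1, a nuclear receptor coactivator, by 0.20 (SE 0.12). Without NonTG C these were 0.11 and 0.098, and as the mean over its 3 probe sets Ncoa1 differed by 0.37 (SE 0.24). Slc27a2, an acyl-CoA synthetase for very long chains, differed by 0.51 (SE 0.31) but passed the dim level on 4 arrays; without SOD1-G93A C it differed by 0.34. For all of these the limma adjusted p was 0.9997, and the groups of Slc27a1, Plin3, Scd, Slc27a2 and Ncoa1 overlapped.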

How the data were processed

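Gene expression was measured on 6 arrays of cultured rat spinal cord astrocytes, 3 NonTG and 3 SOD1-G93A, from 5 ug of total RNA each. Per the submitters' processing notes, the authors computed a linear intensity for each probe set (MAS5, software GCOS 1.4); GC-RMA and log values, named in the design text, are not what the table used here holds. The 2% trimmed mean signal was 500.16 to 500.17 on every array. Probe sets were named from the platform annotation: of 31042 that are not controls, 20826 had 1 symbol, 436 several and 9780 none, and 20758 of the first matched the current rat gene table.

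Signals were log2 transformed as deposited, without a pseudocount or another normalization. Probe sets at or below the 40th percentile of mean log2 signal were left out, which left 18625. The groups were compared by lmFit and trended eBayes of limma 3.58.1 (R 4.3.3). Tests were two-sided, p-values were adjusted by Benjamini-Hochberg over these 18625 probe sets, and the threshold was 0.05. The letters were tested by limma's moderated F-test with the group as a covariate. The scripts were tested on simulated data. Precision is limited by the few arrays: the median SE of a difference was 0.16 over all probe sets and 0.11 over the set.

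Over the tested probe sets, deviations from the group means correlated at 0.30 for A, 0.25 for B and 0.20 for C between same-letter arrays. Between different letters they correlated at -0.28 to 0.025. Deviations within a group cancel out by construction, so positive same-letter values by themselves push the others downwards, and the contrast is no separate evidence. Because same-letter arrays correlated, the letter was also fitted as a replicate block. Other alternatives were no filter or the 60th percentile, log2(signal + 32), quantile normalization, no trend, array weights, averaging the probe sets of each gene and leaving out each array.

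Every gene of the set is named. Given in full are those whose groups did not overlap, the 8 with the smallest p for the group, the 4 with the smallest p for the letters, the receptors, and of the wider list the 8 with the smallest p. Hadhb and the dim genes are shown besides. The genes and lists were chosen with earlier results of these data known. Promoter windows came from RefSeq.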

Additional observations from a re-analysis of the deposited data

How the results depend on the processing

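No setting brought a gene of the set past the adjusted threshold for the group: over 22 named genes the limma adjusted p was 0.7657 at its lowest. The replicate block called 0 probe sets and left the median difference of the set at 0.032. Genes higher in SOD1-G93A numbered 9 to 19 of 27 when 1 array was left out, and the median ran from -0.033 to 0.097; the low end of each is without SOD1-G93A B. Of 304 named gene and setting pairs, 12 turned sign. Of these, 11 were leave-one-out values, which ran from -0.25 to 0.52 for Acaa2, -0.22 to 0.097 for Ech1, -0.081 to 0.30 for Lpl, -0.054 to 0.15 for Ppard and -0.39 to 0.14 for Rxra. Ppard was -0.12 as the mean over its probe sets, one of which was dim. The letter test called 110 probe sets with no filter, where more were tested, 0 without the intensity trend (the cause was not tested), and 361 to 950 with 1 array left out, where 1 letter of a group has no partner. Brightness limits the 6 dim genes, for which no difference is given.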
